A study of Mus musculus with 5 samples.

Results

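The 6 Iroquois homeobox genes (Irx1 to Irx6) were followed through 3 lists of ChIP-seq peaks from cardiac progenitor (CP) cells, which were derived from 46C mouse embryonic stem cells. The members were the peaks that the authors had named for an Irx gene. They numbered 73 of 89451 peaks, of which 17 of 23244 were ZHX1 peaks of 46C-Ctrl cells, 15 of 14662 were hnRNPA1 peaks of 46C-Ctrl cells and 41 of 51545 were hnRNPA1 peaks of Zhx1-KO cells. ZHX1 is a nuclear protein with zinc fingers and homeodomains, and hnRNPA1 binds RNA and takes part in its splicing. The series asked which genes the ZHX1 and hnRNPA1 interaction may act on in CP cells. The 46C-Ctrl cells carried wild-type Zhx1 and the Zhx1-KO cells came from the same 46C line after CRISPR/Cas9 cutting with guides at the start and at the stop site of the gene, and the labels give no other difference between them. How many Zhx1-KO clones went into the ChIP was not given in the sources used here, and the 2 input libraries of the 5 samples were not analysed here. Each list came from 1 library, so no difference between lists could be tested, and all 95% intervals below cover counting error only. The lists held positions and a gene name without a score, and a list of peaks gives no expression, so neither the CP label nor the knockout could be checked in them.

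Irx genes encode transcription factors of the TALE homeobox class and stand in 2 clusters of 3 genes, an arrangement kept across mammals. Irx1, Irx2 and Irx4 lie on chromosome 13 and Irx3, Irx5 and Irx6 on chromosome 8. They are known for patterning the neural tube, limb and heart. In the heart, Irx4 marks ventricular identity, Irx3 is needed for fast conduction through the His-Purkinje system, and Irx5 shapes the repolarisation gradient across the ventricular wall by repressing Kcnd2, which encodes a potassium channel subunit. The clusters are also known for long-range enhancers that lie far from the genes, among them elements in the introns of Fto that contact Irx3.

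The Irx genes were named in every list, and nearly always at a distance. ZHX1 peaks were named for 5 of the 6 genes, 46C-Ctrl hnRNPA1 peaks for 4 and Zhx1-KO hnRNPA1 peaks for 6. Over 20961 protein-coding genes, 42.3%, 32.6% and 60.2% had at least 1 peak named for them in the same lists. Irx1, Irx3, Irx5 and Irx6 had peaks in all 3 lists, as did 18.7% of protein-coding genes. Irx2 lacked a 46C-Ctrl hnRNPA1 peak, and Irx4 was named in the Zhx1-KO list only. A peak within 2 kb of a transcript start was found for 1 Irx gene, Irx5, in the ZHX1 list, and for none in either hnRNPA1 list. Among 21938 protein-coding genes, 12.1% had such a promoter peak of ZHX1, 6.77% of 46C-Ctrl hnRNPA1 and 21.0% of Zhx1-KO hnRNPA1.

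**Figure D1:**
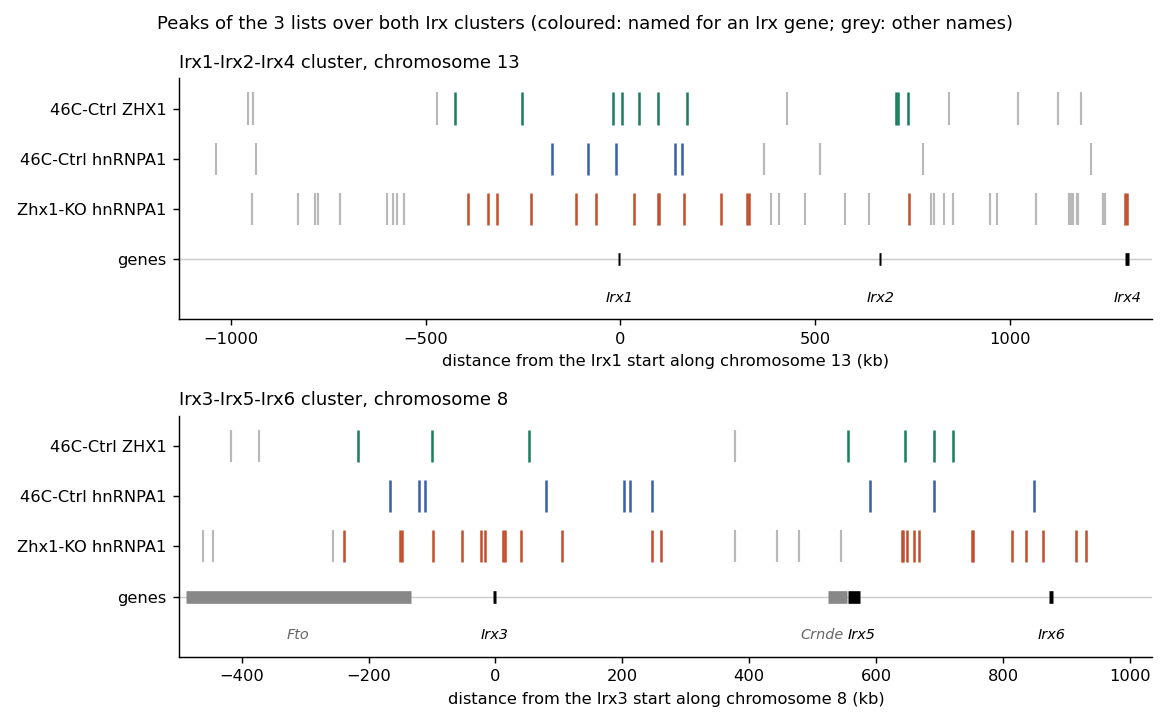
Positions of all peaks in the intervals around the Irx1-Irx2-Irx4 and Irx3-Irx5-Irx6 clusters (x axis, distance in kb from the Irx1 or Irx3 start along the chromosome), 1 row for each list, with gene bodies below. Coloured lines are the 73 peaks named for an Irx gene and grey lines are peaks with other names, including those named for Fto, and most coloured lines stand away from the black gene bodies.

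The names followed distance. All 73 Irx peaks lay nearer to the start of their Irx gene than to any other curated RefSeq start, and 0 peaks nearest an Irx start carried another name. Over the whole lists the name was that of the nearest start for 91.2% of ZHX1, 90.8% of 46C-Ctrl hnRNPA1 and 91.0% of Zhx1-KO hnRNPA1 peaks. With the starts of all GENCODE transcripts as candidates, noncoding ones included, the Irx genes were nearest for 5, 4 and 9 peaks, and with protein-coding RefSeq starts alone for 24, 19 and 68. A count per gene therefore grows with the sequence that has no nearer start, and Irx genes own a great deal of it. The stretch nearest to the start was 761 kb for Irx1, 521 kb for Irx3, 235 kb for Irx6, 159 kb for Irx5, 94.1 kb for Irx2 and 49.7 kb for Irx4, against a median of 42.6 kb over protein-coding genes. Only 1.44% of protein-coding genes had a stretch as long as that of Irx1 and 2.86% as long as that of Irx3. In the Zhx1-KO list the counts followed this order of lengths but for Irx2 and Irx4, since Irx1 and Irx3 had 13 peaks each, Irx6 had 7, Irx5 had 5, Irx4 had 2 and Irx2 had 1.

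Per length, the Irx genes were near the density of each list. The 17 ZHX1 peaks came to 9.34 per Mb (exact Poisson 95% interval 5.44 to 15.0) over the 1.82 Mb nearest to the 6 starts, and the whole list had 8.78 per Mb. The 15 peaks of hnRNPA1 in 46C-Ctrl came to 8.24 per Mb (4.61 to 13.6) against 5.54 per Mb. The 41 peaks of hnRNPA1 in Zhx1-KO came to 22.5 per Mb (16.2 to 30.6) against 19.5 per Mb. All 3 intervals held the density of their list. At those densities the 6 genes would have 16.0, 10.1 and 35.4 peaks.

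**Figure D2:**
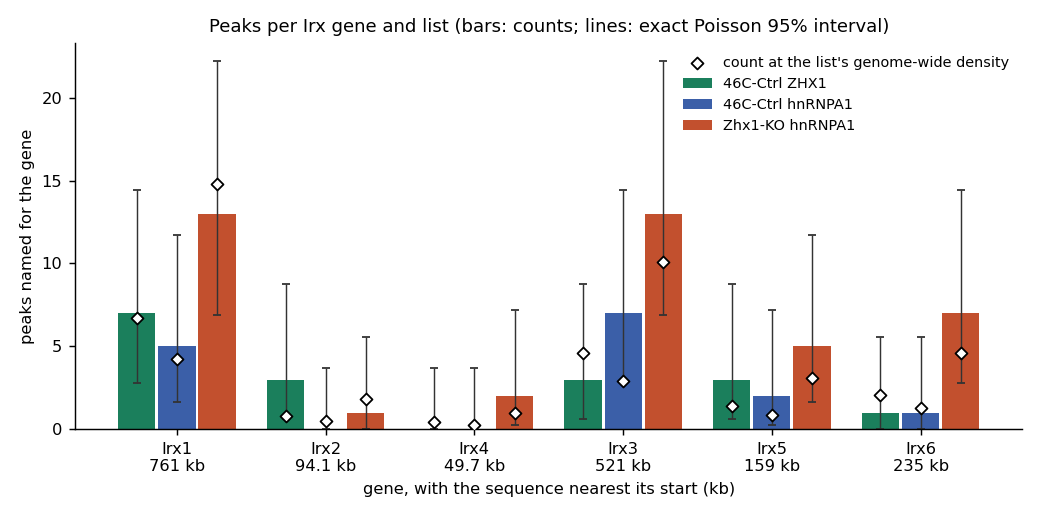
Number of peaks (y axis) named for each Irx gene (x axis, with the kb of sequence nearest its start) in the 3 lists, with exact Poisson 95% intervals as lines and, as diamonds, the count that the gene's sequence would hold at the genome-wide density of the list. Every diamond lies inside its line, and the tallest bars are the 13 Zhx1-KO peaks of Irx1 and of Irx3.

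The knockout list held more Irx peaks than the control list, as it did over the genome. Between 46C-Ctrl and Zhx1-KO the Irx-named hnRNPA1 peaks went from 15 to 41, a ratio of 2.73 (exact 95% interval 1.48 to 5.32), and all hnRNPA1 peaks went from 14662 to 51545, a ratio of 3.52. The interval of the Irx ratio held the ratio of all peaks. Irx1 went from 5 to 13 peaks, Irx3 from 7 to 13, Irx5 from 2 to 5 and Irx6 from 1 to 7, the last with a ratio of 7 that 1 control peak leaves almost unbounded (0.899 to 315). The ratio was 3.20 (1.12 to 11.2) over Irx1, Irx2 and Irx4 and 2.5 (1.16 to 5.83) over Irx3, Irx5 and Irx6. When each list was reduced to its 14662 widest peaks, the Irx count was 10 for ZHX1, 15 for 46C-Ctrl hnRNPA1 and 11 for Zhx1-KO hnRNPA1. That step makes the lists equal in size by construction and keeps Zhx1-KO peaks of at least 333 bp only, whereas the 46C-Ctrl hnRNPA1 list stays whole, so it does not bear on the source of the difference. Under that unequal cut Irx3 had 7 control peaks and 1 knockout peak, and Irx1 had 5 of each. Only the knockout counts were filtered by width, so these pairs of counts do not compare the genotypes at either gene. Sequencing depth and the threshold of the peak caller were not given in the sources used here, and their part in the counts was not tested.

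Irx4, the ventricular member of the family, had no peak in either 46C-Ctrl list and 2 in the Zhx1-KO list. Such counts are common, since 18.7% of protein-coding genes were named in the Zhx1-KO list alone and 36.7% had at least 2 peaks there. At the density of each list the 49.7 kb of Irx4 would hold 0.436 ZHX1, 0.275 46C-Ctrl hnRNPA1 and 0.967 Zhx1-KO peaks. With protein-coding starts alone as candidates Irx4 was nearest for 3, 1 and 13 peaks, so whether the 46C-Ctrl lists name Irx4 depends on the starts used. Under any naming the closest 46C-Ctrl peaks were remote, at 89.3 kb (hnRNPA1) and 115 kb (ZHX1) upstream of the Irx4 start. Both named peaks were among the Irx peaks closest to a start. This follows in part from the naming, since no peak farther away than the 49.7 kb nearest the Irx4 start could carry its name. Irx4 spans chr13:73260479-73269608 on the plus strand (GRCm38). The upstream peak, chr13:73258185-73258439, was intergenic and centred 2.19 kb before the start, just outside the 2 kb promoter window. The downstream peak, chr13:73265313-73265685, was centred 5 kb after the start over a coding exon, and was 373 bp wide with 62.5% GC. Counted on both strands, it held 3 copies of TAGGG, the DNA form of the core of the RNA motif that hnRNPA1 is known to prefer. At least 1 copy was in 35.3% of all Zhx1-KO peaks, and the share with 3 copies was not computed. The downstream peak was 1 of 2 Irx peaks over a coding exon. The upstream peak and the coding part of the downstream peak are printed because they are the only peaks named for this gene. Both are the plus strand of GRCm38 from RefSeq, with TAGGG and its reverse complement CCCTA in capitals.

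Irx4 upstream peak, chr13:73258185-73258439: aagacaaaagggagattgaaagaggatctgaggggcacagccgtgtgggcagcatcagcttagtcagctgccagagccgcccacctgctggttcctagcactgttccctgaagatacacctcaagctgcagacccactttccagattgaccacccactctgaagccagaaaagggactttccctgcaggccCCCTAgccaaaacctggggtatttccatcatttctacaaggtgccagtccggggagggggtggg

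Irx4 coding part, chr13:73265458-73265685: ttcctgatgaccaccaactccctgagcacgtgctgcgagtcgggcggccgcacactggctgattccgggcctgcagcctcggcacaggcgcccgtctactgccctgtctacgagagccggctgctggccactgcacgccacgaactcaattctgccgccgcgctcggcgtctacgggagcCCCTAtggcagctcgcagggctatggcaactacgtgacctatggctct

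The upstream peak carried 1 copy of the pentamer and the 228 coding bases carried 1 of the 3 copies of their peak, the others lying outside the coding bases. Both printed copies read CCCTA on the plus strand, which is the strand of Irx4. With a promoter taken as 5 kb to either side, Irx4 counted as a promoter gene of the Zhx1-KO list, together with 34.1% of all protein-coding genes. Between 53.2 and 229 kb upstream of Irx4 lay a further 11 Zhx1-KO peaks that carried the name 4930555K05Rik. Of these, 7 stood within 22.1 kb (chr13:73116244-73138382), 122 to 144 kb before the Irx4 start, and 3 within 5.12 kb (chr13:73202401-73207524), and no peak of the other lists lay inside either run. Of the 7, the peaks that begin at 73120150 and 73124945 lay in repeats, with a median of 11391 and 3827 copies. Over the genome 0.553% of Zhx1-KO peaks stood with at least 6 others in a stretch of 22.1 kb or less, and these runs were singled out after their positions were seen. In the 46C-Ctrl lists the same name was given to 2 ZHX1 peaks and 1 hnRNPA1 peak.

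Irx5, the repolarisation regulator, spans chr8:92357625-92376286 on the plus strand and had the closest peak of the family. It was a ZHX1 peak at chr8:92358009-92358259, centred 0.338 kb downstream of the start and 251 bp wide, and it was the most GC-rich of the 73 Irx peaks with 75.7% GC and 34 CpG. It covered 175 bases of the leader and the first 76 coding bases, which are printed with each CpG in capitals (plus strand, GRCm38, from RefSeq), because this is the sole promoter peak of the family.

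Irx5 coding part of the ZHX1 peak, chr8:92358184-92358259: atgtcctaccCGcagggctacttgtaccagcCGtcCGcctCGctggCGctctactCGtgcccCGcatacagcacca

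This stretch opens at the start codon and holds 7 of the CpG. The closest hnRNPA1 peaks were a Zhx1-KO peak named for Crnde, 11.7 kb upstream of the Irx5 start, and a 46C-Ctrl peak named for Irx5, 34.0 kb downstream. All 10 peaks named Irx5 in the 3 lists lay downstream of the start. This side follows from the naming, since just upstream of Irx5 the start of Crnde became the nearest one. The peaks named Crnde, 1 of ZHX1 and 4 of Zhx1-KO hnRNPA1, lay 11.7 to 178 kb upstream of Irx5. The 5 Zhx1-KO peaks stood together, 84.7 to 111 kb downstream, within 26.6 kb (chr8:92442411-92468967), and the ZHX1 peak at chr8:92447415-92447685 lay between the second and the third of them, 3514 bp and 2690 bp away. Of all Zhx1-KO peaks, 5.21% stood with at least 4 others in a stretch that short. The widest Irx peak of all, 568 bp, belonged to this run.

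Further downstream, 135 kb from the Irx5 start, a ZHX1 peak and a 46C-Ctrl hnRNPA1 peak stood side by side with 68 bp between them. This was the closest approach of the ZHX1 and hnRNPA1 lists at any Irx gene, so both sequences are printed (the last 300 bases of the ZHX1 peak at chr8:92493048-92493350, and the whole hnRNPA1 peak), again with TAGGG or CCCTA in capitals.

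Irx5 ZHX1 peak, chr8:92493051-92493350: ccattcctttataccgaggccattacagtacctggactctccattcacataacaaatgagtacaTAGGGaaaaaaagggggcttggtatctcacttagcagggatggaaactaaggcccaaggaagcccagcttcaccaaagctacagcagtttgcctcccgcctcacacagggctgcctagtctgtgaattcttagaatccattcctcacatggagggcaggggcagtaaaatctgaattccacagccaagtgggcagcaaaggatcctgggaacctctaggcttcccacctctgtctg

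Irx5 46C-Ctrl hnRNPA1 peak, chr8:92493419-92493704: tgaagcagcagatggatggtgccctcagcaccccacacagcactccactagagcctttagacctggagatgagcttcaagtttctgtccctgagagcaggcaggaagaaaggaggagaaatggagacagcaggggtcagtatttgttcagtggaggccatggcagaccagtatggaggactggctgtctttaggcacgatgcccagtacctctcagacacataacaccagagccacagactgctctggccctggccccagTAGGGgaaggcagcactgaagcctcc

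Each carried 1 copy of TAGGG. The nearest Zhx1-KO peak was 24080 bp from the ZHX1 peak of the pair.

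Irx3, the conduction gene, spans chr8:91798525-91802067 on the minus strand and had 3 ZHX1, 7 46C-Ctrl hnRNPA1 and 13 Zhx1-KO hnRNPA1 peaks. In 46C-Ctrl hnRNPA1 it was the Irx gene with the most peaks, and 0.439% of protein-coding genes had at least as many. That share takes no account of the 521 kb nearest the Irx3 start, a length that 2.86% of protein-coding genes reach. Of the 7 peaks, 3 were wider than the smallest width of the list. With all GENCODE starts as candidates Irx3 was nearest for 0. Its density there was 13.4 per Mb (5.40 to 27.7), and the 2.89 peaks that the list's density would give lay inside the interval of the count (2.81 to 14.4) by a narrow margin. The ZHX1 peaks lay 53.4 to 216 kb from the start, the 46C-Ctrl hnRNPA1 peaks 79.9 to 246 kb, and the Zhx1-KO peaks 12.5 to 261 kb. Hence 6 Zhx1-KO peaks, at 12.5, 15.3, 16.4, 21.9, 41.1 and 53.1 kb, were closer than any peak of the 46C-Ctrl lists.

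The obesity-associated gene Fto (chr8:91313525-91668439), which has 9 exons and lies downstream of Irx3, held 5 of the Irx3 peaks, all in intron 8. They comprised 1 ZHX1 peak (216 kb from the Irx3 start), 1 46C-Ctrl hnRNPA1 peak (166 kb) and 3 Zhx1-KO peaks (147, 151 and 238 kb). A further 5 peaks in Fto carried the name Fto, of which 3 were in intron 1, 1 in intron 3 and 1 in intron 8. The Fto-named peak of intron 8 was 233 kb from the Fto start and 255 kb from the Irx3 start. A peak took the name Irx3 only where the Irx3 start was nearer. The place of the 5 Irx3 peaks in the last intron therefore follows from the naming. Beyond Fto, a ZHX1 peak (chr8:91701219-91701540) and a Zhx1-KO hnRNPA1 peak (chr8:91702539-91702798) lay 998 bp apart, 100 and 99.0 kb downstream of the Irx3 start.

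Irx3 also had the sole overlap between Irx peaks of different lists. A 46C-Ctrl hnRNPA1 peak, chr8:92047938-92048233, and a Zhx1-KO hnRNPA1 peak, chr8:92048146-92048501, overlapped by 88 bp in intergenic sequence 246 kb upstream. The control peak is printed because it is the single Irx site where hnRNPA1 was called with and without ZHX1. The bases in capitals are those inside both peaks.

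Irx3 46C-Ctrl hnRNPA1 peak, chr8:92047938-92048233: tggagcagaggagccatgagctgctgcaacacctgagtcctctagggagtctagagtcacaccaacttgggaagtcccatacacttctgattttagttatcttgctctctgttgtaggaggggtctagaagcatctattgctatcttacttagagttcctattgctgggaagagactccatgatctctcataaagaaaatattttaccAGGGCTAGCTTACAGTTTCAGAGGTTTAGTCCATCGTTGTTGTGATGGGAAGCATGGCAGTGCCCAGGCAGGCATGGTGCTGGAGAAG

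The overlap took up the minor part of either peak, and 46.3% of the control peak and 75.8% of the knockout peak were repeat-masked, although the median 32-base word of each occurred once in the genome.

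Irx1, which like Irx2 is expressed in the ventricular septum, lies on the minus strand at chr13:71957921-71963723 and had 7 ZHX1, 5 46C-Ctrl hnRNPA1 and 13 Zhx1-KO peaks over its 761 kb. ZHX1 came closest, 5.65 kb upstream, followed by 46C-Ctrl hnRNPA1, 9.72 kb downstream, and the nearest Zhx1-KO peak was 36.2 kb upstream. Downstream of Irx1 the noncoding RNA gene Gm40999 held 8 of these peaks in its introns. Gene 1700112M02Rik held 2 more, 391 and 425 kb away. The ZHX1 peak at chr13:72061026-72061253, 97.4 kb upstream, stood between 2 Zhx1-KO peaks that were 1065 bp and 1022 bp away. Some of the Irx1 peaks lay in repeats. The 46C-Ctrl hnRNPA1 peak at chr13:71880054-71880276 lay wholly in repeat-masked sequence whose median 32-base word occurred 651 times in the genome, and 2 of the 7 ZHX1 peaks had medians of 47 and 16 copies. All 13 Zhx1-KO peaks of Irx1 had a median of 1 copy. These counts are too small to tell the lists apart. Over all peaks a median of at least 2 copies was found for 25.2% of ZHX1, 24.4% of 46C-Ctrl hnRNPA1 and 31.4% of Zhx1-KO peaks.

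Irx2, chr13:72628820-72634198 on the plus strand, had 3 ZHX1 peaks, 0 46C-Ctrl hnRNPA1 peaks and 1 Zhx1-KO peak, all 42.8 to 76.7 kb downstream. The ZHX1 count came to 31.9 per Mb (6.57 to 93.2), and the list's density would give 0.826 peaks, inside the Poisson interval of the count (0.619 to 8.77). A ZHX1 peak (chr13:72702481-72702882) and the Zhx1-KO peak (chr13:72705386-72705654) lay 2503 bp apart. They reached only into the opposite ends of the noncoding gene Gm47890 (chr13:72702849-72705392), and most of each peak lay outside it. Another ZHX1 peak, 48.8 kb downstream, was wholly repeat-masked with a median of 65 copies. On the upstream side the start of Gm20554, a noncoding gene that begins beside the Irx2 start on the opposite strand, was the nearest one. Its 1 ZHX1, 2 46C-Ctrl hnRNPA1 and 5 Zhx1-KO peaks lay 25.8 to 295 kb upstream of Irx2.

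Irx6, the last gene of its cluster (chr8:92674288-92680956), had 1 ZHX1 peak 151 kb upstream, 1 46C-Ctrl hnRNPA1 peak 23.2 kb upstream and 7 Zhx1-KO peaks from 9.86 to 121 kb away. At 29.8 per Mb (12 to 61.4) the Zhx1-KO peaks were denser here than the 19.5 per Mb of the list, within the interval. Of these 7, a pair 120 and 121 kb upstream were 474 and 476 bp wide and 0.652 kb apart, and 6.08% of all Zhx1-KO peaks had another within 1 kb. The Zhx1-KO peak 42.1 kb downstream, over an exon of Gm3272, was wholly masked with a median of 64 copies.

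The shared positions of the whole family were few. None of the 15 46C-Ctrl hnRNPA1 Irx peaks overlapped a ZHX1 peak by 1 bp or more (0%, Wilson 95% interval 0 to 20.4%), beside 4.12% of all peaks of that list. With Zhx1-KO hnRNPA1 1 of 15 overlapped (6.67%, 1.19 to 29.8%), beside 4.41%. None of the 17 ZHX1 Irx peaks overlapped a Zhx1-KO hnRNPA1 peak (0 to 18.4%), beside 4.42%. With so few peaks an overlap at the level of the whole lists could not be told from none. The median gap from an Irx peak to the nearest peak of the other list was 33.4 kb from 46C-Ctrl hnRNPA1 to ZHX1, 23.1 kb from 46C-Ctrl to Zhx1-KO hnRNPA1 and 21.4 kb from ZHX1 to Zhx1-KO hnRNPA1, where the whole lists had 28.7, 12.5 and 12.9 kb. In all, 10 pairs of Irx peaks from different lists were within 5 kb of each other. A peak of another list lay within 5 kb of 17 of the 73 Irx peaks (23.3%), beside 27.5% of all peaks.

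Irx peaks were remote from their genes. The median distance to the start was 89.8 kb for ZHX1, 136 kb for 46C-Ctrl hnRNPA1 and 98.7 kb for Zhx1-KO hnRNPA1, against 34.8, 33.6 and 38.4 kb over all peaks of each list. Within 10 kb of the start were 6 of 73 (8.22%, Wilson interval 3.82 to 16.8%), against 21.8% of all peaks, and beyond 100 kb were 36 (49.3%, 38.2 to 60.5%), against 27%. A gene with a long stretch has room for distant peaks, and these shares were not matched for length. By annotation, 50 of the 73 were intergenic, 16 were in introns, 5 were over noncoding exons and 2 were over coding exons. Any overlap with an exon was counted, however short. Upstream of the start were 32 and downstream 41, but for Irx2 and Irx5 the naming gave the upstream side to Gm20554 and Crnde.

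**Figure D3:**
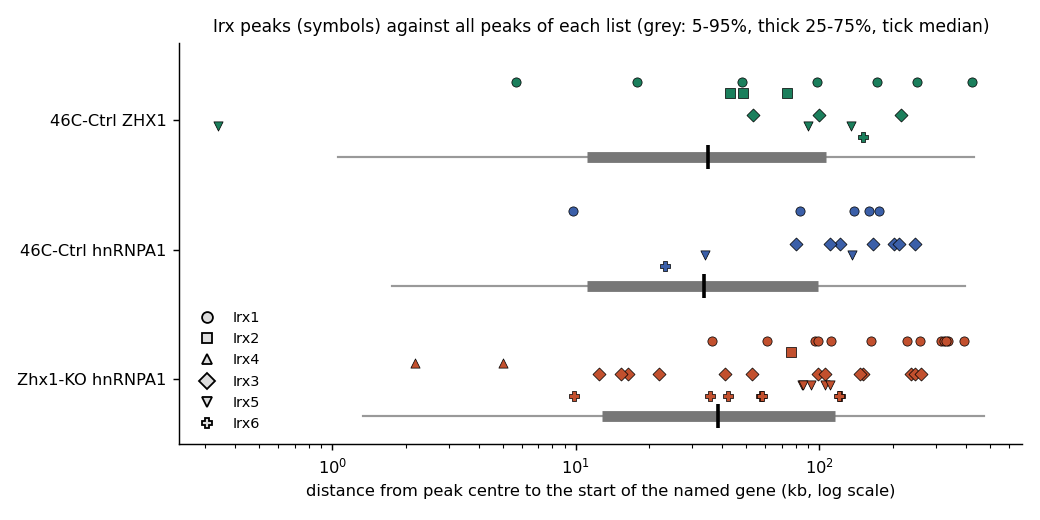
Distance from each Irx peak's centre to the start of its gene (x axis, kb, log scale) for the 3 lists, with a symbol for each gene. Grey bars show all peaks of the same list (thick line for the interquartile range, thin line from 5 to 95%, tick for the median), and most Irx symbols lie to the right of the ticks at 34.8, 33.6 and 38.4 kb. The symbols to the left include the Irx5 ZHX1 peak at 0.338 kb, both Irx4 peaks and some peaks of Irx1, Irx3 and Irx6.

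The clusters as a whole were also near the level of their chromosomes. Between the neighbouring coding genes Adamts16 and Ndufs6, the Irx1-Irx2-Irx4 interval of 2.48 Mb held 18 ZHX1, 11 46C-Ctrl hnRNPA1 and 47 Zhx1-KO peaks of any name. That came to 7.26, 4.44 and 19 per Mb, where chromosome 13 had 9.32, 5.74 and 21. Between Fto and Mmp2, the Irx3-Irx5-Irx6 interval of 1.16 Mb held 7, 9 and 26 peaks, or 6.04, 7.77 and 22.4 per Mb, where chromosome 8 had 9.60, 6.31 and 19.3. The chromosome's density lay inside the Poisson interval in all 6 cases. Among 601 autosomal intervals of at least 500 kb between protein-coding genes, the median density was 6.99, 3.81 and 15.7 per Mb. These intervals hold no protein-coding gene, whereas the Irx intervals hold the Irx genes, so the 2 kinds are not alike. For the Irx3-Irx5-Irx6 interval the hnRNPA1 values were above the upper quartile in both genotypes (5.93 and 20 per Mb). Their Poisson intervals (3.55 to 14.7 and 14.7 to 32.9) held the medians. Its ZHX1 value was below the median.

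**Figure D4:**
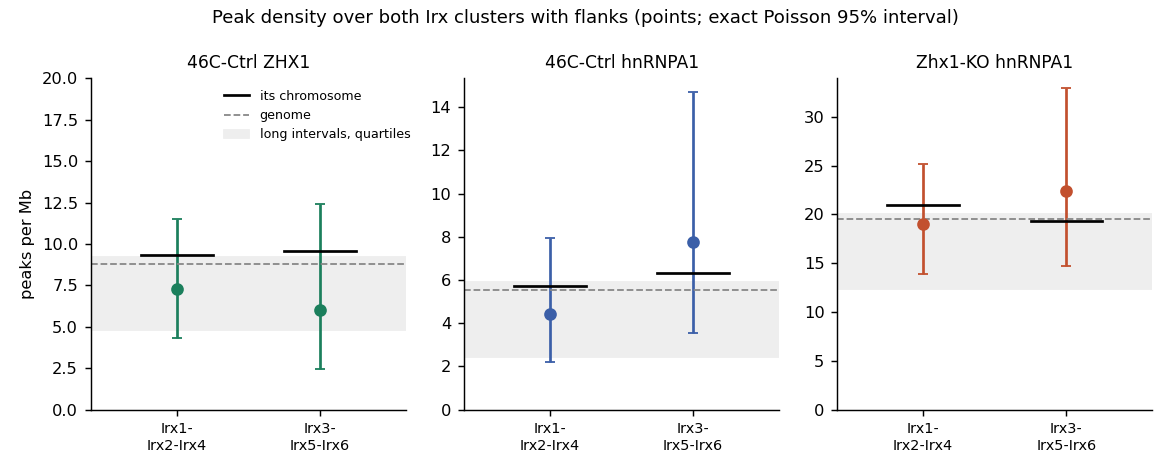
Peaks per Mb (y axis) over the 2 Irx intervals (x axis) in each list, with exact Poisson 95% intervals, the density of the chromosome (black line), of the genome (dashed line) and the quartile range of 601 long intervals between protein-coding genes (grey). All 6 intervals hold the black line, and the Irx3-Irx5-Irx6 points stand above the grey band in both hnRNPA1 panels. The long intervals hold no protein-coding gene, unlike the Irx intervals.

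Between Irx3 and Irx5 a few peaks were named Crnde, the noncoding RNA gene whose start lies close to that of Irx5 on the opposite strand (chr8:92326033-92356120). They were 1 ZHX1 peak and 4 Zhx1-KO hnRNPA1 peaks. The ZHX1 peak, chr8:92179181-92179533, overlapped a Zhx1-KO peak, chr8:92179408-92179718, by 126 bp in an intron of Gm45335, 178 kb upstream of Irx5. It was the sole place in the Irx3-Irx5-Irx6 interval where ZHX1 and hnRNPA1 peaks overlapped, and hnRNPA1 was called there in Zhx1-KO and not in 46C-Ctrl. The last 300 bases of the ZHX1 peak follow, with the overlap in capitals.

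Crnde-named ZHX1 peak, chr8:92179234-92179533: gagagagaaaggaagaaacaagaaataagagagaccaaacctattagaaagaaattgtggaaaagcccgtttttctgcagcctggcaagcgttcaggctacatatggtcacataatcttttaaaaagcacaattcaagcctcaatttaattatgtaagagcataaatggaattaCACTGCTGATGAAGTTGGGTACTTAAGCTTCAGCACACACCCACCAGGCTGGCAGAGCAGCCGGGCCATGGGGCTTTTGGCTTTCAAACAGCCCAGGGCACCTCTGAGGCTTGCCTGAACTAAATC

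Another of the Zhx1-KO peaks, chr8:92345863-92346351, lay over an exon of Crnde 11.7 kb upstream of Irx5.

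The sequence under Irx peaks held fewer repeats than the lists did. Peaks whose median 32-base word occurred at least 2 times in the genome made up 6 of 73 Irx peaks (8.22%, 3.82 to 16.8%), against 28.6% of all peaks. In the Zhx1-KO list these were 2 of 41 (4.88%, 1.35 to 16.1%) against 31.4%, in ZHX1 3 of 17 (17.6%, 6.19 to 41.0%) against 25.2%, and in 46C-Ctrl hnRNPA1 1 of 15 (6.67%, 1.19 to 29.8%) against 24.4%. The Irx stretches themselves were less masked than their chromosomes, at 22.4% on chromosome 13 and 19.5% on chromosome 8 where the chromosomes had 33.2% and 32.3%. The median masked share of an Irx peak was 0% for ZHX1, 10.5% for 46C-Ctrl hnRNPA1 and 9.25% for Zhx1-KO hnRNPA1, and over all peaks it was 21.3%, 18.6% and 25.5%. Median GC was 49.1%, 47.5% and 49.6%, each above the 46.3%, 46.7% and 48.3% of its list, and the Irx stretches had 43.6% and 46.6%.

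Short motifs were at or near their background. TAGGG, searched on both strands, was in 7 of 15 46C-Ctrl hnRNPA1 Irx peaks (46.7%, 24.8 to 69.9%), in 19 of 41 Zhx1-KO peaks (46.3%, 32.1 to 61.3%) and in 6 of 17 ZHX1 peaks (35.3%, 17.3 to 58.7%), where the whole lists had 35.0%, 35.3% and 34.4%. The CCAAT box was in 6 of 15, 12 of 41 and 3 of 17 Irx peaks (40.0%, 29.3% and 17.6%), where the lists had 36.3%, 38.2% and 36.4%. The palindrome ACANNTGT, known as a binding sequence of Irx proteins, was in 4 of 73 (5.48%, 2.15 to 13.3%) beside 9.94 to 10.6% over the lists. A G-quadruplex pattern of 4 runs of at least 3 G was in 3 of 73 (4.11%, 1.41 to 11.4%), beside 5.07% of all peaks. All of these Wilson intervals held the share of their list. Irx peaks were of ordinary width, with medians of 235, 267 and 260 bp for ZHX1, 46C-Ctrl hnRNPA1 and Zhx1-KO hnRNPA1 against 259, 257 and 271 bp. The smallest width of a list was reached by 7 of 17, 7 of 15 and 12 of 41 Irx peaks (41.2%, 46.7% and 29.3%), beside 36.4%, 33.7% and 28% of all peaks.

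The genes that work with Irx factors were looked at in the same way. Of 19 partners and targets of Irx proteins in the heart, 10 were named in the ZHX1 list, 5 in 46C-Ctrl hnRNPA1 and 17 in Zhx1-KO hnRNPA1. Over all protein-coding genes 42.3%, 32.6% and 60.2% were named in these lists. The 19 genes had a median of 1, 0 and 2 peaks a gene, against 0, 0 and 1 over all protein-coding genes. For the 6 Irx genes the medians were 3, 1.5 and 6. Nkx2-5, the cardiac homeobox factor, had 5 ZHX1 peaks, 0 in 46C-Ctrl hnRNPA1 and 3 in Zhx1-KO. Kcnd2, the Irx5 target, had 9, 2 and 12 over 1148 kb. Hand1 had 4, 2 and 5, and Tbx5 had 1, 1 and 9. Promoter peaks were listed for 5 of these 19 genes in ZHX1, 1 in 46C-Ctrl hnRNPA1 and 9 in Zhx1-KO, where the Irx genes had 1, 0 and 0. Among all protein-coding genes 12.1%, 6.77% and 21.0% had a promoter peak.

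Per length these heart genes held 14.2 ZHX1 peaks per Mb (9.91 to 19.8), 4.07 for 46C-Ctrl hnRNPA1 (1.95 to 7.48) and 24.8 for Zhx1-KO (19 to 31.9). Their ZHX1 interval lay above the 8.78 per Mb of the whole list. Among all gene lists and libraries compared here, no other interval left out the density of its peak list. Kcnd2, Rxra and Nkx2-5 supplied 9, 6 and 5 of the 35 ZHX1 peaks. Some of the heart genes, such as Nkx2-5 and Tbx5, are also in the heart field or T-box lists below. Their hnRNPA1 intervals held the 5.54 and 19.5 per Mb of the 46C-Ctrl and Zhx1-KO lists. The Irx genes held 9.34, 8.24 and 22.5 per Mb. The 12 other TALE homeobox genes held 11.0, 6.96 and 23.2 per Mb, with 7, 8 and 9 genes named and 5 promoter genes in each list. Over all protein-coding genes 42.3%, 32.6% and 60.2% were named, and 12.1%, 6.77% and 21.0% had a promoter peak. Among the TALE genes Meis1 had 20 of the 40 Zhx1-KO peaks and 1 in 46C-Ctrl hnRNPA1. Mkx had 5 and 1, and Meis2 had 2 and 2. The 9 T-box genes held 8.50, 5.66 and 26.2 per Mb, and the 8 heart field factors 9.87, 3.29 and 19.7. The 8 limb and patterning partners, among them Shh and its effector Gli3, held 10.9, 7.69 and 21.1 per Mb. The intervals of the Irx genes overlapped those of each of these lists in every library.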

How the data were processed

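Chromatin of CP cells was immunoprecipitated with antibodies against ZHX1 (46C-Ctrl) or hnRNPA1 (46C-Ctrl and Zhx1-KO), 1 library per group. According to the study's methods and the submitters' processing notes, the authors trimmed reads with cutadapt 1.18, dropped those under 50 bases, aligned them to GRCm38 with Bowtie2 2.3.5.1 and removed duplicates and reads that were not unique. BWA 0.7.12-r1039 and deepTools 3.3.0 are also named. The peak caller, its threshold, the use of input and the sequencing depth were not given in the sources used here. The deposited files give the positions (bp) and a gene name for each peak, with no count, score or p-value, so no statistical test was run.

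Members were the peaks named Irx1 to Irx6. The members and gene lists were chosen with earlier results of these data known. Overlaps (at least 1 bp), distances to curated RefSeq starts, promoters (2 kb to either side of any GENCODE transcript start), peaks per Mb, motifs on both strands and the copies of 32-base words in GRCm38 were computed with Python 3.11.15, numpy 2.4.6 and pandas 2.3.3, and the overlap code was tested on simulated data. Intervals are Wilson, exact Poisson or, for ratios of counts, exact binomial, at 95%, with scipy 1.17.1. The genes named were the 6 members, genes holding their peaks, bounding neighbours, Fto and Crnde and, from each fixed list, up to 4 genes per combination of lists in which they were named. Alternatives were other gene assignments, wider peaks only, other promoter widths, stricter or looser overlap and the members' span alone.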

Additional observations from a re-analysis of the deposited data

How the results depend on the processing

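Of 39 alternative values for 15 results, 24 stayed close to the reported value (a count within 1.5-fold, a density inside its Poisson interval). Several of the 24 could not have moved. The widest-peak setting leaves the 46C-Ctrl hnRNPA1 list whole, and a narrower promoter, fewer peaks or a stricter overlap cannot raise a count of 0. The tally is therefore no measure of how stable the results are. Assigning peaks to the nearest of all GENCODE transcript starts, noncoding ones included, left 5 ZHX1, 4 46C-Ctrl hnRNPA1 and 9 Zhx1-KO hnRNPA1 peaks for the Irx genes. Assigning them to the nearest protein-coding RefSeq start, an alternative chosen after seeing the data, gave 68 Zhx1-KO peaks. With peaks of the smallest width left out, 10 ZHX1 and 8 46C-Ctrl hnRNPA1 peaks remained. With the widest 14662 peaks of each list, 10 ZHX1 and 11 Zhx1-KO peaks were named for Irx genes, the Irx1-Irx2-Irx4 interval held 3.63 ZHX1 and 5.65 Zhx1-KO peaks per Mb, and the Irx3-Irx5-Irx6 interval held 5.18 Zhx1-KO peaks per Mb, since fewer peaks were kept. A promoter of 5 kb gave 1 Irx gene in the Zhx1-KO list. Counting gaps of at most 1 kb as shared gave 1 position for ZHX1 with 46C-Ctrl hnRNPA1 and 1 for ZHX1 with Zhx1-KO hnRNPA1, and asking for an overlap of 50% of each peak left 0 for 46C-Ctrl with Zhx1-KO hnRNPA1. No paired analysis was possible because each group had 1 library and the result comes from no test. Peak heights and depth are unknown, so a weak peak cannot be told from a strong one, and a position without a peak may have fallen under the threshold of its library.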
